A study of Homo sapiens with 6 samples.

Results

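PTPRN2 is a gene of about 1 Mb at the end of the long arm of chromosome 7, and 27 of the 4344 differentially methylated regions listed by the authors in HepG2 cells overlap it or the sequence just beside it. The regions were chosen by position alone: every row of the 3 deposited lists that overlaps chromosome 7: 157538000-158590000 on hg38. The lists hold only regions that the authors had called as different between overexpressing and control libraries. Every level and difference at the gene therefore comes from the contrast by which the regions were listed, and is given here as a description with no test. RefSeq places PTPRN2 at chromosome 7: 157539056-158587823, so 26 of the 27 rows lie inside the gene and 1 lies 1265 bp outside its upstream end. The gene table used here gives the extent of genes but no exons, so exonic, intronic and UTR positions are not given.

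The assay was reduced representation bisulfite sequencing (RRBS), in which MspI digestion selects CpG-rich fragments and bisulfite treatment leaves only methylated cytosines to be read as C. HepG2 is an established human liver cancer line. One group was infected with a control lentivirus and labelled wild type, the other with a lentivirus that overexpresses DNMT3A, and each group has 3 libraries numbered 1 to 3. Each list compares the overexpressing with the control library of the same number, called pair 1, 2 or 3 below, and whether the libraries stem from separate cultures is not stated in the labels. Any SD below therefore describes only these libraries or pairs. The pairs listed partly different regions or stretches, so an SD mixes the spread between pairs with that between stretches. The labels also do not give the promoter of the lentiviral construct, or whether the cells are 1 clone or a pool. Mapped reads ranged from 25764323 to 29924507 per library. The lists give no reads per region, so the depth behind each level is unknown. They hold no expression values, so neither the level of DNMT3A nor the hepatocyte identity of the cells could be checked from them. At the DNMT3A gene itself all 4 listed rows were lower in the overexpressing library, with differences of -0.114 to -0.288. Over the 3 lists 81.6% of rows were higher. The lists do not say whether reads of the lentiviral DNMT3A sequence contributed to these levels, and this was not tested.

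PTPRN2 encodes IA-2 beta, also called phogrin, a transmembrane protein of the dense-core secretory vesicles of neurons and endocrine cells. It belongs by sequence to the receptor-type protein tyrosine phosphatases, acts in the storage and release of hormones and transmitters such as insulin, and is an autoantigen in autoimmune diabetes. DNMT3A is a de novo methyltransferase, which places methyl groups on CpG sites that carry none. Methylation inside a gene body and methylation at a promoter are known to relate differently to transcription, so the place of each region in the gene is given below. PTPRN2 is transcribed from the minus strand, so its transcription start is at the high-coordinate end of the gene.

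All 27 listed regions of PTPRN2 had a higher methylation level in the DNMT3A-overexpressing library. Pair 1 listed 8 regions, pair 2 listed 12 and pair 3 listed 7, and the count of regions with a lower level was 0. Over all regions of the 3 lists, 81.6% were higher (82.1% in pair 1, 81.7% in pair 2 and 81.1% in pair 3); gains are thus the common direction in every list. Without pair 2, which contributed the most, 15 regions remained. The libraries of pair 2 had 27958476 (overexpressing) and 26912596 (control) mapped reads, against 29924507 and 29269281 in pair 1 and 25764323 and 27197410 in pair 3, and the part of depth in these counts was not tested.

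Control levels were low or intermediate, and overexpressing levels were intermediate in most regions and high in a few. Across the 27 rows the control level ran from 0.0963 to 0.482 with a median of 0.229, and the overexpressing level from 0.343 to 0.914 with a median of 0.532. Levels are fractions from 0 to 1, the authors' mean over the CpG sites of a region. The mean difference (overexpressing minus control) over the listed regions of a pair was 0.296 in pair 1, 0.322 in pair 2 and 0.319 in pair 3, or 0.313 ± 0.0142 (SD, n = 3 pairs). The same mean over all regions listed as higher was 0.280, 0.278 and 0.278. Each pair's mean was thus slightly larger at PTPRN2 than over its whole list of gains, a difference that was not tested. In pair 1, whose 8 rows include the largest difference of the gene (0.490), the medians were close, at 0.270 and 0.264. They were 0.321 and 0.266 in pair 2 and 0.320 and 0.265 in pair 3.

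The mean control level of the listed regions differed more between pairs than the mean difference did, and each pair listed mostly other regions. The mean control level was 0.185 in pair 1, 0.285 in pair 2 and 0.277 in pair 3. These means rest on different regions, so they do not show that the control libraries differed at the gene. Where 2 pairs listed overlapping stretches, controls were 0.343 and 0.333 (pairs 2 and 3) and 0.183 and 0.136 (pairs 2 and 1). At the others they were 0.201 and 0.221 (pairs 2 and 1) and 0.143 and 0.156 (pairs 3 and 1). In pair 1 the 8 control levels ran from 0.0963 to 0.327 and the 8 overexpressing levels from 0.343 to 0.712. The ranges of these 8 listed regions thus did not overlap. The same held in pair 3, with 0.143 to 0.375 against 0.463 to 0.703. In pair 2, with 12 rows, the ranges overlapped, with controls from 0.110 to 0.482 and overexpressing levels from 0.406 to 0.914. Over all listed gains, controls reached 0.816 in pair 1 and 0.877 in pair 3. The overexpressing levels of all gains began at 0.0452 in pair 1 and 0.0594 in pair 3. Ranges widen with the number of rows, and each row was listed because its libraries differed, so no conclusion about the gene is drawn from them.

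**Figure D1:**
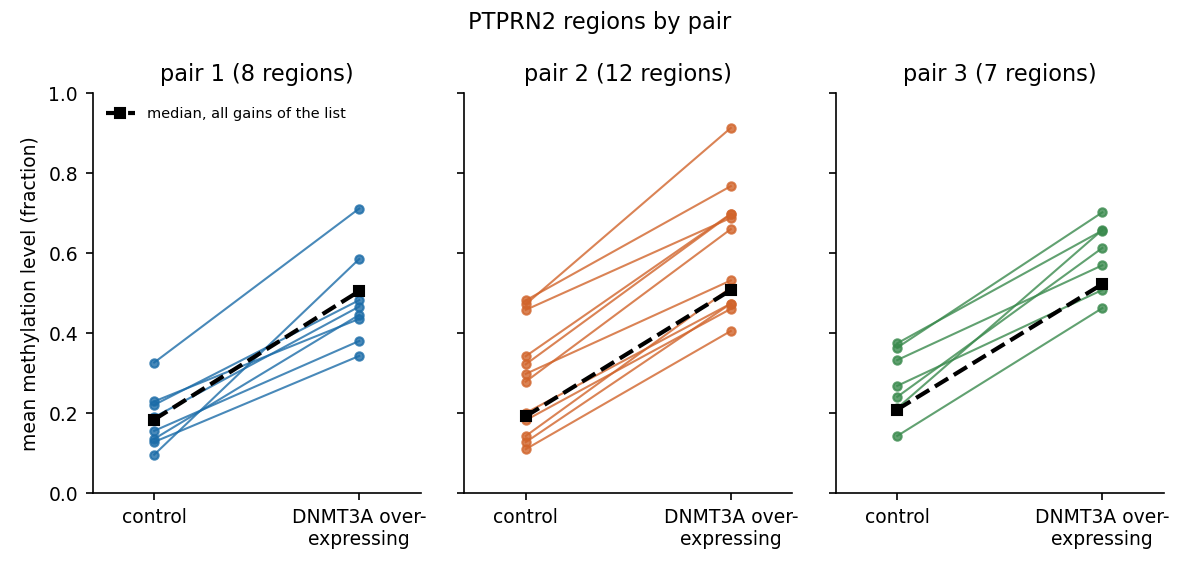
Mean methylation level (fraction, vertical axis) of each listed PTPRN2 region in the control and the DNMT3A-overexpressing library of pairs 1, 2 and 3; each line is 1 region and the dashed line joins the medians of all gains of that list. All 27 lines rise, and the control levels of pair 2 reach 0.482, higher than in pairs 1 and 3.

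The regions were concentrated toward the 3' end of the gene. Merging rows that overlap by at least 1 bp gave 23 distinct regions, 22 of them inside PTPRN2. When the gene is cut into 4 equal parts of 262 kb, the part at the 3' end held 17 of these 22, the next part 4, the part after it 0, and the part with the transcription start 1. The 21 regions of the 3' side ran from chromosome 7: 157548579-157548659, which begins 9523 bp inside the gene's 3' end, to chromosome 7: 157987279-157987342, and the median gap between neighbours was 15.1 kb. A stretch of 383 kb without a listed region followed. Which CpG sites of the gene were covered by RRBS without a call is not known from the lists, so an empty stretch shows only that none was called there. Together the 23 regions span 2476 bp, equal to 0.236% of the length of the gene.

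**Figure D2:**
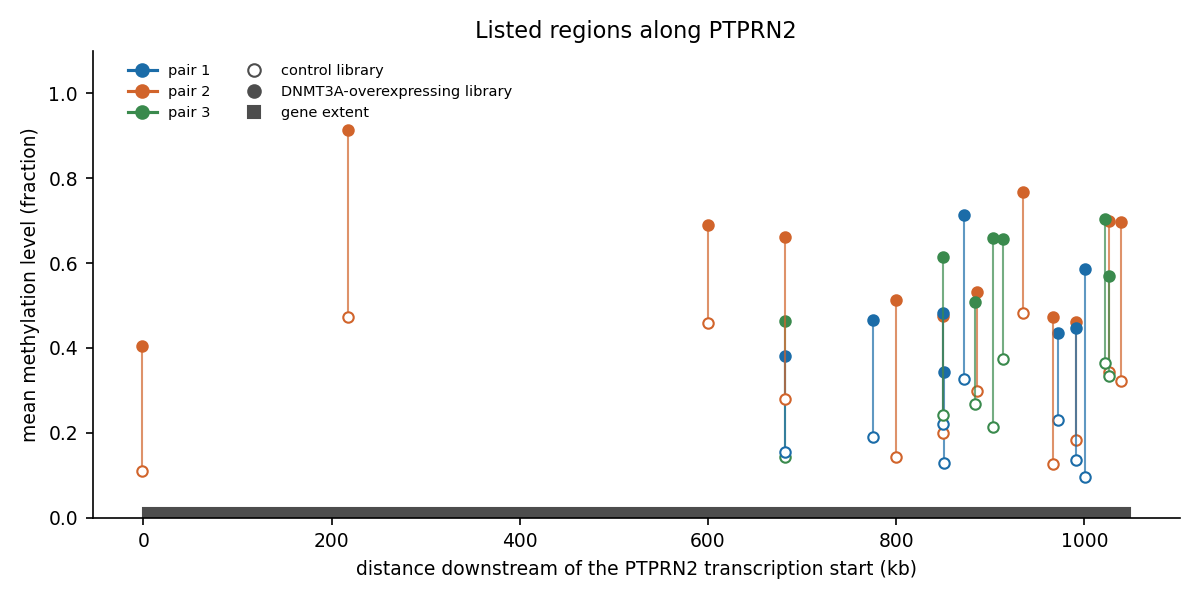
Mean methylation level (fraction, vertical axis) of the 27 listed rows against distance downstream of the PTPRN2 transcription start (kb, horizontal axis); open points are control libraries, filled points DNMT3A-overexpressing libraries, colours the 3 pairs, and the dark bar the gene. The points lie between 601 and 1039 kb downstream of the start, except for 1 region at 217 kb and 1 just upstream of the start.

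Apart from this 3' group there were 2 regions, both listed in pair 2 alone. The one nearest the promoter, at chromosome 7: 158589088-158589203 with 12 CpG sites, lies 1265 bp upstream of the RefSeq start of PTPRN2 and 1426 bp from the noncoding gene LINC01022. Its level was 0.110 in control library 2 and 0.406 in overexpressing library 2, a difference of 0.296. It is the only one of the 23 regions outside the transcribed gene. It lies beyond the 1 kb margin used for genes and is included because the window reaches 2177 bp past the upstream end. The other, at chromosome 7: 158370478-158370568 with 5 CpG sites, lies inside the gene 217 kb from the start. It had the highest overexpressing level of all 27 rows, 0.914, against 0.473 in the control.

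A call was repeated in a second pair at 4 of the 23 distinct regions (17.4%), and at 0 of them in all 3 pairs. Over the whole series 19% of 3313 distinct regions were listed as higher in at least 2 pairs and 7.97% as higher in all 3. Among the 2556 distinct regions with gains only, the shares were 24.6% and 10.3%. The 17.4% at PTPRN2 is thus near or somewhat below the 19% and 24.6% listed in at least 2 pairs. The 0 regions in all 3 pairs stand beside the 7.97% and 10.3%. Neither difference was tested. Of the other 19 regions, 5 were listed in pair 1 only, 9 in pair 2 only and 5 in pair 3 only. A region missing from a list has no level there, so it cannot be said whether the other pairs differed less at it.

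The region closest to the 3' end of the gene among the repeated ones was chromosome 7: 157561348-157561582, listed in pairs 2 and 3. In pair 2 it held 20 CpG sites and had a level of 0.343 in control library 2 and of 0.699 in overexpressing library 2. In pair 3 only its inner part, chromosome 7: 157561431-157561501 with 9 CpG sites, was listed, at 0.333 and 0.570. The control levels were close together, while the overexpressing levels were further apart, and the difference averaged 0.297 ± 0.0842 (SD, n = 2 pairs).

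The second repeated region, chromosome 7: 157596926-157597179, was listed in pairs 1 and 2. Pair 2 listed the whole stretch with 24 CpG sites, the most of any row of the gene, with levels of 0.183 (control library 2) and 0.461 (overexpressing library 2). Pair 1 listed the part from 157597029 with 12 CpG sites, at 0.136 and 0.446. The difference averaged 0.295 ± 0.0225 (SD, n = 2 pairs).

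The third, at chromosome 7: 157737784-157737950, had nearly the same boundaries in both of its pairs. Control libraries 1 and 2 stood at 0.221 and 0.201, and overexpressing libraries 1 and 2 at 0.483 and 0.474. The difference averaged 0.268 ± 0.00818 (SD, n = 2 pairs), the smallest spread among the repeated regions. Pair 3 did not list this stretch but a neighbouring one 342 bp away, chromosome 7: 157738293-157738357 with 7 CpG sites, at 0.241 in control library 3 and 0.613 in overexpressing library 3. At this site, counting neighbours within 500 bp, the control levels of the 3 libraries ran from 0.201 to 0.241 and the overexpressing levels from 0.474 to 0.613.

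The fourth repeated region, chromosome 7: 157905851-157906015, was listed in pairs 1 and 3. Control libraries 1 and 3 stood at 0.156 and 0.143, and overexpressing libraries 1 and 3 at 0.381 and 0.463, with a mean difference of 0.272 ± 0.0671 (SD, n = 2 pairs). Pair 2 again listed a separate neighbour, chromosome 7: 157906120-157906241, which begins after a gap of 104 bp and holds 7 CpG sites. It stood higher in both libraries of pair 2, at 0.279 and 0.661. With such neighbours joined, a step chosen after seeing the data, 2 sites of PTPRN2 were listed as higher in all 3 pairs. These CpG sites differ between the pairs, so their levels are not repeated measurements of 1 region.

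**Figure D3:**
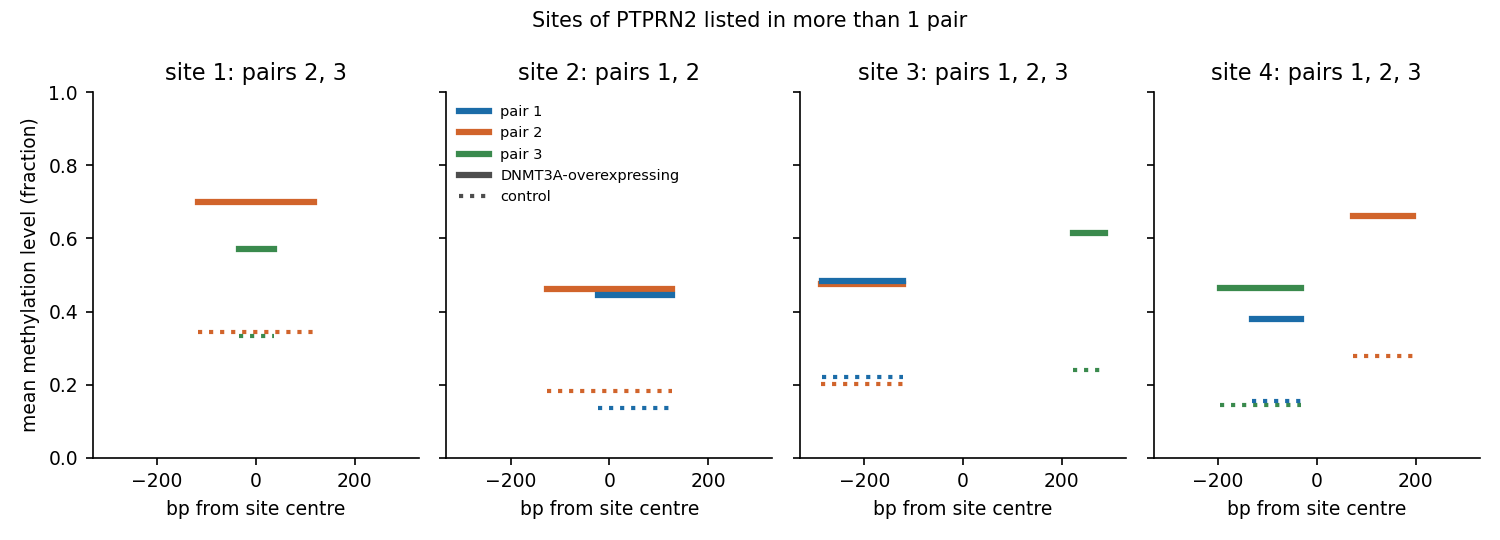
Mean methylation level (fraction, vertical axis) over the listed stretch of each pair, against distance in bp from the centre of the 4 PTPRN2 sites listed in more than 1 pair; solid bars are DNMT3A-overexpressing libraries, dotted bars controls, and colours the pairs. At sites 3 and 4 pair 3 and pair 2, respectively, sit beside the stretch shared by the other pairs.

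Larger differences than at the repeated regions were found among the regions listed in 1 pair. The largest was at chromosome 7: 157587301-157587374 in pair 1, where 10 CpG sites went from 0.0963, the lowest control level of the gene, to 0.586, a difference of 0.490. Over the series 4.99% of listed gains were larger. In pair 3, chromosome 7: 157684449-157684503 with 6 CpG sites went from 0.213 to 0.659 (difference 0.446). The region 217 kb from the start, described above, followed with 0.441 in pair 2, and chromosome 7: 157715295-157715364 in pair 1, with 5 CpG sites, stood at 0.327 and 0.712 (0.385). Each of these values rests on 1 library per group.

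The remaining 15 regions listed once had differences from 0.207 to 0.382, on 7 to 16 CpG sites. Among those that began low in the control were chromosome 7: 157620812-157620890 (pair 2, 0.128 and 0.474), chromosome 7: 157787537-157787647 (pair 2, 0.143 and 0.514) and chromosome 7: 157736675-157736779 (pair 1, 0.128 and 0.343, the lowest overexpressing level of the gene). Regions that were already part methylated included chromosome 7: 157652879-157652956 (pair 2), with the highest control level of the gene, 0.482, against 0.768, and chromosome 7: 157674747-157674842 (pair 3, 0.375 and 0.657). The 2 regions of the 3' side nearest to the end of the transcript that were listed once, chromosome 7: 157548579-157548659 (pair 2) and chromosome 7: 157566330-157566389 (pair 3), stood at 0.322 and 0.698 and at 0.364 and 0.703. The smallest difference of the gene, 0.207, was in pair 1 at chromosome 7: 157616078-157616141 (0.229 and 0.436), whereas the lists reach down to 0.0259.

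Small and noncoding RNA genes lie within PTPRN2, and 2 of the listed regions fall inside such a gene. The region with the smallest difference lies in LOC105375614, and chromosome 7: 157987279-157987342 (pair 2, 0.459 and 0.689, 8 CpG sites) lies in LOC105375613, so these positions are shared between PTPRN2 and a long noncoding RNA gene. No region was listed in PTPRN2-AS1, an antisense transcript whose nearest listed region is 39.8 kb away. MIR153-2, which gives rise to the neuronal microRNA miR-153, lies at chromosome 7: 157574336-157574422 between listed regions, the nearest 7947 bp away. MIR595 at chromosome 7: 158532718-158532813 is 56.3 kb from the nearest region. MIR5707 lies beyond the upstream end of the gene, 2413 bp from the region upstream of the start.

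Regions of PTPRN2 that were more methylated in the control were also more methylated in the overexpressing library. Across the 27 rows the control and overexpressing levels correlated with Pearson's r = 0.83 and Spearman's rho = 0.79, whereas the control level and the difference had r = -0.0098 and rho = 0.0085. These are descriptions across regions of 6 libraries, in which rows of 1 pair share libraries and overlapping rows share CpG sites. The overexpressing level is the control level plus the difference, and all listed differences lay between 0.207 and 0.490. The correlation of the levels partly follows from this range. It is not given here for all gains, so it is not shown to be particular to the gene. Of the 10 rows with a control level under 0.2, the median overexpressing level was 0.462. Of the 9 rows with a control level of 0.3 or more, it was 0.699. A control level of 0.2 or more was found in 63.0% of the PTPRN2 rows and in 49.2% of all listed gains.

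Regions with few CpG sites had the larger differences. The 12 rows with fewer than 10 CpG sites had a median difference of 0.372 and a median control level of 0.325. In the 15 rows with 10 or more sites these medians were 0.277 and 0.190. Over all listed gains the difference moved the same way with the number of sites, from 0.308 (1318 regions with fewer than 10) to 0.245 (2228 regions). The control level of all gains went the other way, with medians of 0.180 and 0.205. PTPRN2 regions were small in CpG content, with a median of 10 sites per region against 12 in all gains, at a median density of 10 and 10.8 sites per 100 bp.

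PTPRN2 was among the protein-coding genes with most listed regions, which partly restates why it was chosen. With 26 rows within 1 kb it came after CACNA1H, a T-type calcium channel gene (39), and GNG7, a G protein subunit gene (27), and before BCL11B (21), BCOR (18) and GSE1 (18), among 1773 protein-coding genes with a listed region within 1 kb. The median was 1 listed region per gene, both over the 1773 genes and over the 84 of them longer than 500 kb. Per Mb of gene PTPRN2 had 24.8 listed regions, below the median of 28.6 over the 1773 genes. Genes without a listed region are left out of that median, and a short gene with 1 row has a high value per Mb. It therefore does not show that PTPRN2 has fewer regions for its length than protein-coding genes in general. Among the 84 long genes, whose median was 1.50 per Mb, PTPRN2 came after GSE1 alone (35.5) and before TRAPPC9 (15.1).

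The regions of PTPRN2 were spread over more positions than those of other genes with a like number of rows. Within 1 kb of the gene the 26 rows made 22 distinct regions, as many as the 39 rows of CACNA1H, while the 27 rows of GNG7 made 10. In PTPRN2 18.2% of the distinct regions were listed in at least 2 pairs, against 45.5% in CACNA1H, 70% in GNG7, 41.7% in BCL11B, 40% in PRDM16, 30.8% in GSE1 and 8.33% in MEGF6. Of these 7 genes, which are all those with at least 10 distinct regions, PTPRN2 and MEGF6 had 0 regions listed in all 3 pairs and GNG7 had 6. Over the whole series 21.8% of 3313 distinct regions were listed in at least 2 pairs, which is near the share at PTPRN2. These shares were not tested against each other.

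**Figure D4:**
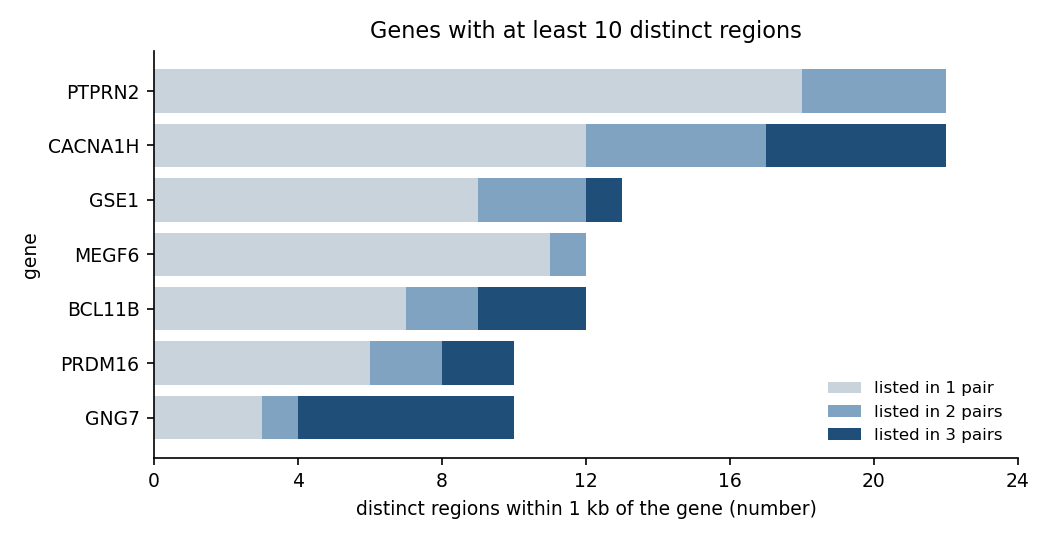
Number of distinct regions within 1 kb (horizontal axis) of the 7 protein-coding genes with at least 10 of them, split by the number of pairs that listed each region. PTPRN2 and CACNA1H have 22 regions each, of which 0 and 5 were listed in all 3 pairs.

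Likeness of methylation levels was measured as the root mean square difference of the 6 library levels, each the mean over the listed regions of a gene, among the 59 genes with at least 6 listed regions and at least 1 in each pair. ANKRD11, a chromatin regulator gene, was closest to PTPRN2 (0.0247, 7 listed regions), and LOC128462377 had the same value because it shares the same regions. SEC14L1 came next (0.0445, 6 listed regions), and the median over all genes compared was 0.149. In ANKRD11 the mean control levels were 0.205, 0.285 and 0.277 in libraries 1 to 3, beside 0.185, 0.301 and 0.277 in PTPRN2 within 1 kb of the gene.

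Of 19 other receptor-type protein tyrosine phosphatase genes, 2 had a listed region (10.5%), a share near the 8.84% of all 20056 protein-coding genes, and all 6 of their rows were higher. In PTPRG, a tumour suppressor candidate of this family, the region at chromosome 3: 61563634-61563775 was listed in all 3 pairs, with control levels of 0.112, 0.109 and 0.0751 and overexpressing levels of 0.382, 0.2995 and 0.225. The second region of PTPRG, chromosome 3: 61672325-61672468, stood at 0.331 and 0.832 in pair 1. In PTPRS, the gene of receptor phosphatase sigma, pairs 2 and 3 listed a region at chromosome 19: 5320003-5320196, with controls of 0.126 and 0.142 and overexpressing levels of 0.375 and 0.383. PTPRN, the closest relative of PTPRN2 and likewise a dense-core vesicle protein, had no listed region.

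Among 36 genes of dense-core vesicle cargo, hormone processing and regulated exocytosis, 5 had a listed region (13.9%, beside 8.84% of all protein-coding genes), each in 1 pair only. Of all 20056 protein-coding genes, 591 had listed regions in 2 or more pairs. The regions of VGF, CADPS2, UNC13A and ICA1 were higher, by 0.0539, 0.316, 0.183 and 0.396. That of SLC30A8, the zinc transporter of insulin granules, was lower by 0.469. The genes for chromogranins and prohormone convertases examined (CHGA, CHGB, PCSK1, PCSK2) had no listed region; their methylation itself is not known from the lists.

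On distal 7q, 3 of 14 neighbouring genes had a listed region (21.4%, beside 8.84% of all protein-coding genes), a difference that was not tested. INSIG1, an inhibitor of sterol synthesis signalling, was higher in pair 1 by 0.387. MNX1, a motor neuron and pancreas homeobox gene, had 8 rows within 1 kb, 7 higher and 1 lower. DYNC2I1, beyond the upstream end of PTPRN2, had 1 row higher (0.0929) and 1 lower. The listed row next to the window was lower on either side. The closest on the low-coordinate side, chromosome 7: 157012693-157012946 in pair 3, differed by -0.613 and lies 536 kb from the first PTPRN2 region, and the closest on the other side, chromosome 7: 158863635-158863714 in pair 2, differed by -0.0995 and lies 274 kb away.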

How the data were processed

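RRBS libraries of HepG2 cells, 3 per group, were analysed from the authors' lists of differentially methylated regions. Coordinates are on hg38, the build named in the submitters' processing notes. Aligner, region caller and calling thresholds were not given in the sources used here. Per the file headers, the deposited levels are fractions from 0 to 1, and the deposited counts are CpG sites per region and reads per library. The authors' signed difference and area score were used only as checks: the difference equalled the overexpressing minus the control level within 1e-12 in every row. The mapping rate and MspI cutting efficiency, percent values of the authors, were not used further. In the region at chromosome 7: 157737784-157737950 a start 1 bp earlier added 1 CpG site, so both cytosines of a CpG may have been counted.

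Rows overlapping the PTPRN2 window were merged where they overlapped by at least 1 bp (Python 3.11.15, pandas 2.3.3); merging was tested on simulated intervals. Genes came from the RefSeq table of GRCh38.p14, with a margin of 1 kb. No test was run, since the rows were listed by the contrast described. The gene, the lists of genes and the rule for named regions (those in 2 pairs and the 4 largest of those in 1 pair in each direction, the 3 most similar genes, the 5 with most listed regions) were chosen with earlier results of these data known. Some regions beyond that rule were named after their values were seen. Alternatives covered the window, a minimum difference of 0.2, a minimum of 10 CpG sites, the overlap, the weighting and leaving out each pair.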

Additional observations from a re-analysis of the deposited data

How the results depend on the processing

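Every alternative left the number of lower PTPRN2 regions at 0. This was fixed in advance, because each one only selected, merged or weighted the same 27 rows, all of them higher. The minimum difference of 0.2 removed no row, since the smallest difference was 0.207. With at least 10 CpG sites per region, 15 listed and 12 distinct regions remained, with a mean difference of 0.284 in place of 0.313. Leaving out each pair in turn gave 15 to 20 listed and 14 to 18 distinct regions, the lowest without pair 2, and a mean difference of 0.308 to 0.321. Regions listed in every remaining pair then numbered 1 to 2. Joining regions within 500 bp, chosen after seeing the data, gave 2 sites listed in all 3 pairs in place of 0. The other 40 of 49 values computed stayed within 1.5 times the count or 1 SD between pairs. Among them were those for rows inside the gene only, a difference of at least 0.2, an overlap of 50% and other weightings. For each region listed in 2 pairs, leaving out 1 pair could not move the mean difference by as much as 1 SD. That outcome was fixed in advance, as were the counts of lower regions and the values with the 0.2 minimum. The 40 are thus no measure of stability. No paired analysis was possible because the results come from no test; none was run, since the regions were listed by this contrast, and every difference given is already within a pair. Depth per region is unknown and limits every level.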

Other observations

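At MNX1, a homeobox gene on the low-coordinate side of PTPRN2, 1 stretch went in opposite directions in 2 pairs. The region at chromosome 7: 157005477-157005709 had levels of 0.915 in control library 2 and 0.569 in overexpressing library 2. In pair 3, chromosome 7: 157005478-157005694 had levels of 0.417 in control library 3 and 0.883 in overexpressing library 3. The number of CpG sites was 63 in pair 2 and 30 in pair 3 although the boundaries differed by at most 15 bp. At PTPRN2 none of the 4 regions listed in 2 pairs changed direction between pairs, which follows from all 27 rows being higher. Over the series, 628 of the 723 distinct regions listed in at least 2 pairs were higher in each. How many of the others changed direction was not counted.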
